A study of Mus musculus with 16 samples.

Results

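Gene expression in the epididymal fat pad was compared between UN-RG pups given tauroursodeoxycholic acid (TUDCA, TU) and UN-RG pups given vehicle (Veh). The arrays were chosen by their titles, 4 of UN-RG-TU (numbers 13 to 16) and 4 of UN-RG-Veh (numbers 9 to 12), which is 8 of the 16 arrays of the series. All pups were C57BL/6 males (substrain NCrSlc by the methods) on a high-fat diet from 9 wks of age. UN-RG pups came from dams held to 60% of the energy intake of normally nourished (NN) dams in late pregnancy, and their litters were cut to 4 pups to induce rapid growth (RG) while suckling. TU was given by stomach tube at 0.5 g per kg body weight per day from 11 to 16.5 wks, and vehicle pups received distilled water. The remaining 8 arrays, 4 NN-TU and 4 NN-Veh, were of pups of freely fed dams reared in litters of 8 on the same diet and dosing, and enter here only for comparison. By title, maternal diet and methods the NN-TU pups had no RG, but the source label of all 4 reads NN-RG-TU, and this conflict could not be settled. Each array held RNA of 1 pup. The litters of the pups are not given in the sources used here, so that litter mates may be among the 4 of a group. Early undernutrition and small litters came together in UN-RG pups, and their effects cannot be told apart.

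TUDCA is a taurine-conjugated, hydrophilic bile acid that is used to relieve stress of the endoplasmic reticulum (ER), the state in which unfolded proteins pile up and cells raise chaperones through the unfolded protein response. Expanding fat in obesity takes up macrophages and T cells. Interferon-γ from T and natural killer cells then raises guanylate-binding proteins, immunoproteasome subunits and MHC molecules. Stressed fat cells and macrophages also release acute phase proteins and chemokines, while genes of lipid synthesis and insulin action tend to fall in inflamed fat.

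Some of the letters by which these 2 programs are commonly read in DNA are shown first. They were chosen because many interferon-γ genes passed the thresholds given below and no gene of the unfolded protein response did. The windows are from RefSeq on build GRCm38.p6 and run from 250 bases before to 50 bases after the start of a gene, and 15691 measured genes had at least 1. The interferon-stimulated response element (ISRE) was searched as GAAANNGAAA and the ER stress response element (ERSE) by its name alone, as CCAAT and CCACG with 9 free bases between them, each on both strands. Capitals mark the match. *Gbp2* and *Igtp*, GTPases that act against intracellular pathogens, and *Cxcl10*, which attracts T cells, each held 1 ISRE, and *Hspa5*, the main ER chaperone, held 1 ERSE.
Gbp2, chr3:142620584-142620633, plus strand: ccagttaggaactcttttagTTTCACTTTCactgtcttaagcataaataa
Igtp, chr11:58199502-58199551, plus strand: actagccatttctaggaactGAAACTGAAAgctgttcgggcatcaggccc
Cxcl10, chr5:92349073-92349122, minus strand: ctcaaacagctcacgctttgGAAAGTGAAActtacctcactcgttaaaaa
Hspa5, chr2:34772005-34772063, plus strand: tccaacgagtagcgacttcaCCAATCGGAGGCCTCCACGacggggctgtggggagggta
In *Gbp2* the ISRE lay on the opposite strand, so that its capitals read as the reverse complement. The ISRE letters stood in 3.94% of all 15691 genes, in 9.11% of the 527 genes with a window that were lower with TU at the thresholds given below, and in 2.35% of the 425 that were higher. They stood in 7 of 15 interferon-γ genes and in 10 of 16 type I interferon genes of the lists used below. The ERSE letters stood in 0.178% of all genes, in 10 of 34 genes of the unfolded protein response, and in none of the genes that were higher or lower. Only 28 of the 15691 genes held these letters, so that none among the genes higher or lower says little. A match of letters is a description of the window and does not show that a factor binds there.

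Values are log2 of the deposited intensity, and differences are UN-RG-TU minus UN-RG-Veh on that scale. The median log2 intensity was 7.01 to 7.11 in these 8 arrays, and the median of the antigenomic controls, probes that match no mouse sequence, was 6.61 over all 16 arrays. Correlations between the 4 arrays of a group were 0.984 to 0.995 in UN-RG-Veh and 0.981 to 0.990 in UN-RG-TU. The tissue label held, with the adipocyte genes *Fabp4* at 18.77 to 18.99 and *Adipoq* at 18.09 to 18.39 in the 8 arrays. Genes of motile cilia, which fat does not use, stood apart in UN-RG-Veh 12 (mean of the list 7.12) and UN-RG-TU 14 (7.36), and lay at 5.55 to 5.81 in the other 6 arrays. They were also high in NN-Veh 2 and NN-TU 8, so that each group held 1 such array, and for some lists the results without these 4 arrays are given too. UN-RG-Veh 9 also stood somewhat apart, with the lowest median of antigenomic controls (6.27) and the lowest level of mesothelial genes. In a whole tissue, fewer cells of a type and less RNA per cell cannot be told apart.

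No transcript cluster passed an adjusted p of 0.05 between UN-RG-TU and UN-RG-Veh (limma, 0 of 22206, 0%), although 1787 had an unadjusted p under 0.05. The smallest adjusted p was 0.0723, shared by 27 clusters, and 55 clusters were under 0.1. By the thresholds of the study, an unadjusted p under 0.05 with a linear fold change of at least 1.3, 607 clusters were higher with TU (2.73% of those tested) and 706 were lower (3.18%). Differences against a group that lies below the antigenomic controls are given as measured, and their size is uncertain. Below, "rose" and "fell" are used for clusters past these thresholds, none of which passed the adjusted p in this fit. Of these 1313 clusters, 59 rose and 65 fell by a linear fold of 2 or more. The shares of 2.73% higher and 3.18% lower are those to set beside each count of list members below. The ranges of the groups did not overlap in 409 clusters that were higher and 455 that were lower, 3.89% of all clusters. The median change over all clusters was 0.01, which the normalization of the arrays holds near 0.

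**Figure D1:**
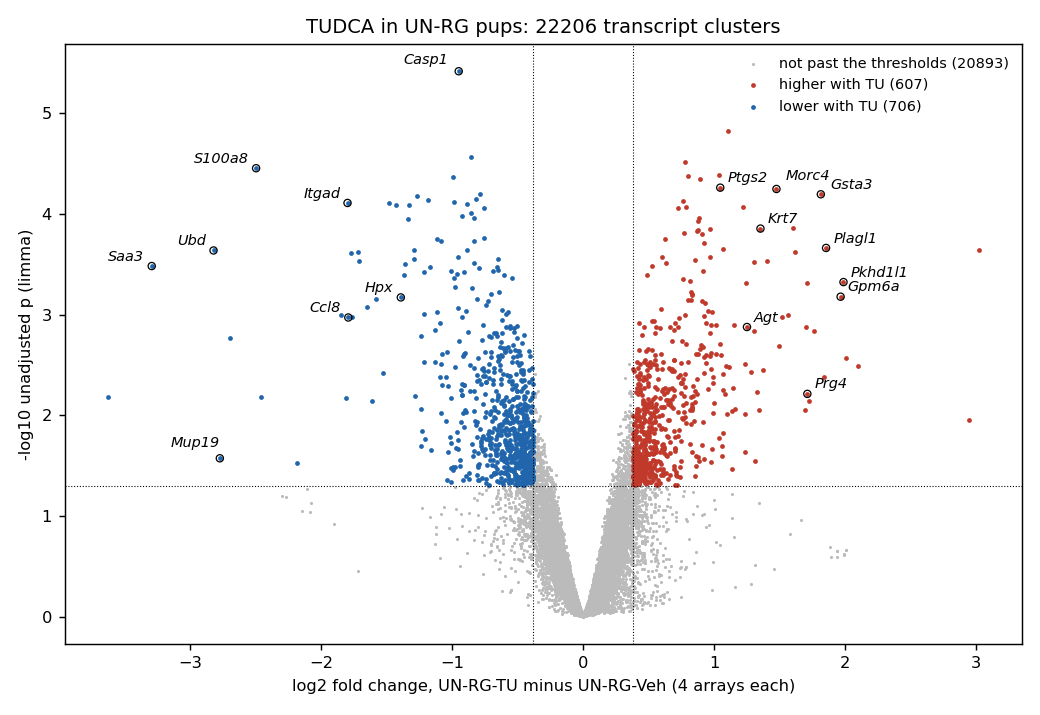
Log2 fold change between UN-RG-TU and UN-RG-Veh (horizontal axis) against −log10 of the unadjusted p from limma (vertical axis) for 22206 transcript clusters, with dotted lines at the thresholds of the study. The 607 clusters that rose (red) and the 706 that fell (blue) are of similar number, and the deepest falls are *Saa3*, *Ubd*, *S100a8* and *Mup19* among the genes with a label.

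Genes of inflammation and of the interferon response stood among those with the smallest adjusted p. The 27 clusters at the smallest adjusted p hold 25 named genes, 12 higher and 13 lower, and these were picked out after their values were seen. *Casp1*, which encodes caspase-1, the enzyme that cleaves the precursors of interleukin-1β and interleukin-18, had the smallest p of all. Its log2 intensity was 12.71, 12.48, 12.57 and 12.65 in UN-RG-Veh and 11.67, 11.45, 11.59 and 11.91 in UN-RG-TU. The groups were thus apart by more than the spread of either, a difference of −0.95 (SE 0.14, 95% interval −1.24 to −0.66), or 1.93-fold lower. *Epsti1*, an interferon-induced gene, fell by 0.86 (SE 0.15), the class I molecule *H2-K1* fell by 0.78 (SE 0.15) and the complement subunit *C1qc* fell by 0.76 (SE 0.15). On the other side *Lyve1*, a receptor for hyaluronan found on lymphatic endothelium and on a class of resident macrophages, read 11.23, 11.12, 11.57 and 11.21 in UN-RG-Veh and 12.34, 12.42, 12.18 and 12.63 in UN-RG-TU. Every treated pup was above every vehicle pup, and the rise was 1.11 (SE 0.18, 2.16-fold).

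Others that rose at this level were *Rasgrf2*, a guanine nucleotide exchange factor (1.04, SE 0.19), *Igfbp5* (0.78, SE 0.14) and *Igfbp6* (1.22, SE 0.24), which bind insulin-like growth factors, *Abi3bp*, a matrix protein (0.80, SE 0.14), and *Slc7a10*, an amino acid transporter of fat cells (0.79, SE 0.15). *Casp1*, *Epsti1*, *H2-K1*, *Rasgrf2* and *Morc4* each passed an adjusted p of 0.05 in 5 of the 17 other ways in which the data were fitted. Of the 25 genes, all but *Ptgs2* passed the thresholds of the study in all 17, and *Ptgs2* did in the 16 that kept dim clusters.

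The study singled out 7 genes of interest from these same arrays, so that their changes here are no independent evidence. All of them passed the thresholds, 5 lower and 2 higher. By quantitative RT-PCR the study reported significant changes in the same directions with TU in UN-RG pups for all but *Casp1*. The change of *Casp1* was not significant by RT-PCR, and the study gives no clear explanation for this. *Saa3*, an acute phase protein made by fat cells and macrophages, showed the deepest fall of these genes. It read 13.65, 15.17, 15.32 and 14.77 in UN-RG-Veh, and 9.49, 12.50, 10.97 and 12.78 in UN-RG-TU. The treated pups were all below the vehicle pups but varied over more than 3 units among themselves (SD 1.52 against 0.75), and the difference was −3.29 (SE 0.73, adjusted p = 0.106), or 9.80-fold.

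*Ubd*, a ubiquitin-like protein induced by interferon-γ, was tight in UN-RG-Veh at 10.30, 10.61, 10.38 and 10.56 and scattered in UN-RG-TU at 5.69, 7.98, 7.75 and 9.15. It fell by 2.82 (SE 0.60, adjusted p = 0.0986). *S100a8*, a calcium-binding alarmin of myeloid cells, read 9.73, 10.19, 9.69 and 9.82 with vehicle and 6.32, 8.37, 7.14 and 7.62 with TU, and fell by 2.50 (SE 0.44, adjusted p = 0.0723). In all 3 genes, pup 13 was the lowest treated pup.

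*Hpx*, which encodes the heme carrier hemopexin, read 5.69, 7.13, 7.25 and 8.01 with vehicle and 5.52, 5.94, 5.67 and 5.38 with TU. Vehicle pup 9 lay inside the treated range and the groups overlapped, with a difference of −1.39 (SE 0.33, adjusted p = 0.153). All 4 treated values and that of vehicle pup 9 were below the 6.61 of the antigenomic controls. *Agt*, which encodes angiotensinogen, rose from 13.23, 11.96, 12.31 and 12.89 to 14.18, 14.15, 13.84 and 13.23, a difference of 1.25 (SE 0.32, adjusted p = 0.202). The 2 groups met almost at 13.23, where the highest vehicle pup and the lowest treated pup stood side by side. *Ptgs2*, the inducible cyclooxygenase, rose by 1.05 (SE 0.19, adjusted p = 0.0723), but from 4.43 to 4.79 with vehicle to 5.28 to 6.07 with TU. All 8 of its values were below the 6.61 of the antigenomic controls, and only 19.1% of those controls were dimmer than its mean.

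**Figure D2:**
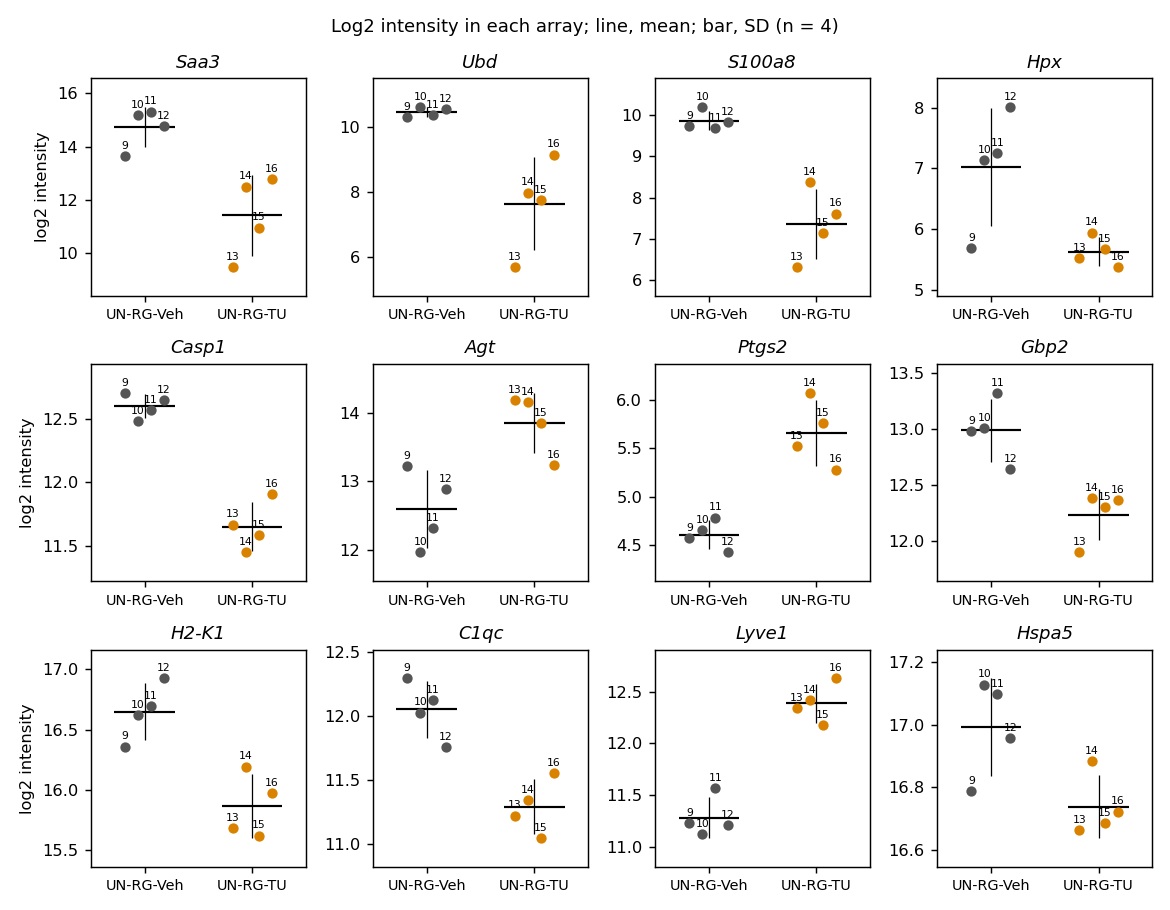
Log2 intensity of 12 genes (vertical axes, each with its own range) in the 4 UN-RG-Veh arrays (grey) and the 4 UN-RG-TU arrays (orange), with the array numbers, the mean (line) and the SD (bar). *Casp1*, *H2-K1*, *C1qc* and *Lyve1* are apart in every pup, *Hpx* is not, and *Hspa5* differs by only −0.26.

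Further genes that the study tables name were mostly lower too, again chosen on these arrays. *Mstn*, which encodes myostatin, a brake on muscle growth, fell by 1.72 (SE 0.37), and *Cck*, which encodes cholecystokinin, fell by 1.85 (SE 0.46) with overlapping groups. The chitinase-like genes *Chil3* and *Chil4*, typical of alternatively activated macrophages, fell by 1.77 (SE 0.38) and 1.24 (SE 0.33). *Pik3ap1*, a phosphoinositide 3-kinase adaptor of immune cells, fell by 1.13 (SE 0.29), and the Fc receptor *Fcgr4* fell by 0.98 (SE 0.29). In *Mstn*, *Chil4* and *Fcgr4* all 4 treated values were below the antigenomic controls. *Met*, the receptor of hepatocyte growth factor, rose by 0.86 (SE 0.24).

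Interferon-γ genes were lower throughout the list. Of 20 measured members, 14 fell and none rose, against 3.18% and 2.73% of all clusters, and all 20 differences were below 0 with a median of −0.72. The mean over the list was 10.36 to 10.81 in the vehicle pups and 9.50 to 10.14 in the treated pups, without overlap. *Gbp2* read 12.98, 13.01, 13.32 and 12.64 with vehicle and 11.90, 12.38, 12.30 and 12.37 with TU, and fell by 0.75 (SE 0.16, adjusted p = 0.0919). *Igtp* read 8.86, 8.54, 9.50 and 9.37, then 7.91, 8.53, 8.13 and 7.83, and fell by 0.96 (SE 0.22). The chemokine *Cxcl10* read 8.15, 7.97, 8.26 and 8.42, then 7.12, 7.52, 7.37 and 7.25, and fell by 0.88 (SE 0.17, adjusted p = 0.0723). Each of these genes, whose ISRE is printed above, was lower in all 4 treated pups than in any vehicle pup. Genes of the list without an ISRE fell as well (*Psmb8*, *Psmb9*, *Psmb10*, *Tap1*, *Cxcl9* and *Ubd*), and *Gbp3* with an ISRE did not pass. Among type I interferon genes with an ISRE, *Rsad2*, *Oas1a*, *Stat2* and *Bst2* fell. *Ifit1*, *Ifit3*, *Isg15*, *Oas3*, *Ifih1* and *Ddx58* held an ISRE too and did not pass.

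The immunoproteasome, which cuts peptides for MHC class I, was lower as a set. *Psmb8* fell from 11.22, 10.66, 10.80 and 10.57 to 9.73, 10.05, 10.12 and 9.91, by 0.86 (SE 0.17, adjusted p = 0.0770). *Psmb10* fell by 0.92 (SE 0.23) and *Psmb9* fell by 0.43 (SE 0.16). *Tap1*, which carries the peptides into the ER, fell by 0.76 (SE 0.22). *Irf1*, which drives many of these genes, did not pass the thresholds, with a difference of −0.10. Leaving out the 4 arrays with cilia genes left 12 of 20 members lower (median −0.71), and without UN-RG-Veh 9 there were 14.

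Of 22 measured type I interferon genes 6 fell and none rose, with a median of −0.39. *Zbp1*, a sensor of nucleic acids, fell from 6.74, 6.47, 6.95 and 6.89 to 5.76, 5.66, 6.32 and 5.98 (−0.83, SE 0.16), around the level of the antigenomic controls. *Bst2*, which tethers budding viruses, fell by 1.03 (SE 0.41), and *Rsad2*, an antiviral enzyme, fell by 0.57 (SE 0.25), both with overlap. The first listed members, *Ifit1* at −0.24 and *Ifit3* at −0.37, did not pass. The count was 2 without UN-RG-TU 13 and 2 without UN-RG-Veh 12, the vehicle pup with the highest mean of this list (8.39), and 3 when only the 2 groups were fitted.

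MHC genes were lower, with 6 of 13 measured members falling, none rising and a median of −0.39. The class I molecule *H2-K1* read 16.36, 16.62, 16.69 and 16.93 with vehicle and 15.68, 16.19, 15.62 and 15.97 with TU. *H2-Q4*, a nonclassical class I gene, read 11.03, 10.88, 11.06 and 11.42, then 8.56, 10.22, 9.68 and 9.99, and fell by 1.48 (SE 0.28, adjusted p = 0.0723). *H2-DMb1*, which loads peptides on class II, read 15.14, 15.19, 15.10 and 15.22, then 13.46, 14.49, 14.04 and 14.73, and fell by 0.98 (SE 0.22). The vehicle pups lay close together for *H2-DMb1* (SD 0.05) while the treated pups spread out (SD 0.56). *H2-D1* at −0.39 did not pass. MHC class I genes are close copies of each other, and a probe can read more than 1 of them. Without UN-RG-TU 13, 3 members fell.

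Genes of the inflammasome, the complex that activates *Casp1*, and of complement followed. In the inflammasome list 5 of 14 fell and 1 rose (median −0.40). *Casp4*, which senses bacterial lipopolysaccharide, fell from 11.25, 11.22, 11.24 and 10.91 to 10.49, 10.37, 10.42 and 10.79, by 0.64 (SE 0.17). The ATP receptor *P2rx7* fell by 0.75 (SE 0.26) and the DNA sensor *Aim2* fell by 0.44 (SE 0.19). *Nlrp3* was at −0.42 and did not pass, and *Il18*, a substrate of caspase-1, rose by 0.52 (SE 0.23), a call that was lost on leaving out any array but UN-RG-TU 13 or UN-RG-Veh 11. The count of those that fell was 3 without UN-RG-TU 13 and 3 without UN-RG-TU 14.

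In the complement list 7 of 13 fell and 1 rose (median −0.45). *C1qb*, made by macrophages, read 14.01, 14.14, 14.15 and 13.73, then 13.13, 13.22, 12.78 and 13.56, and fell by 0.83 (SE 0.17, adjusted p = 0.0929). *Cfb*, of the alternative pathway, read 13.32, 13.36, 13.55 and 13.86, then 12.03, 12.94, 12.65 and 12.94, and fell by 0.89 (SE 0.19, adjusted p = 0.0986). *C2* rose by 0.56 (SE 0.22), but not without UN-RG-TU 15, UN-RG-Veh 10 or UN-RG-Veh 12. Without UN-RG-TU 15 or without UN-RG-Veh 12, 4 members fell.

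**Figure D3:**
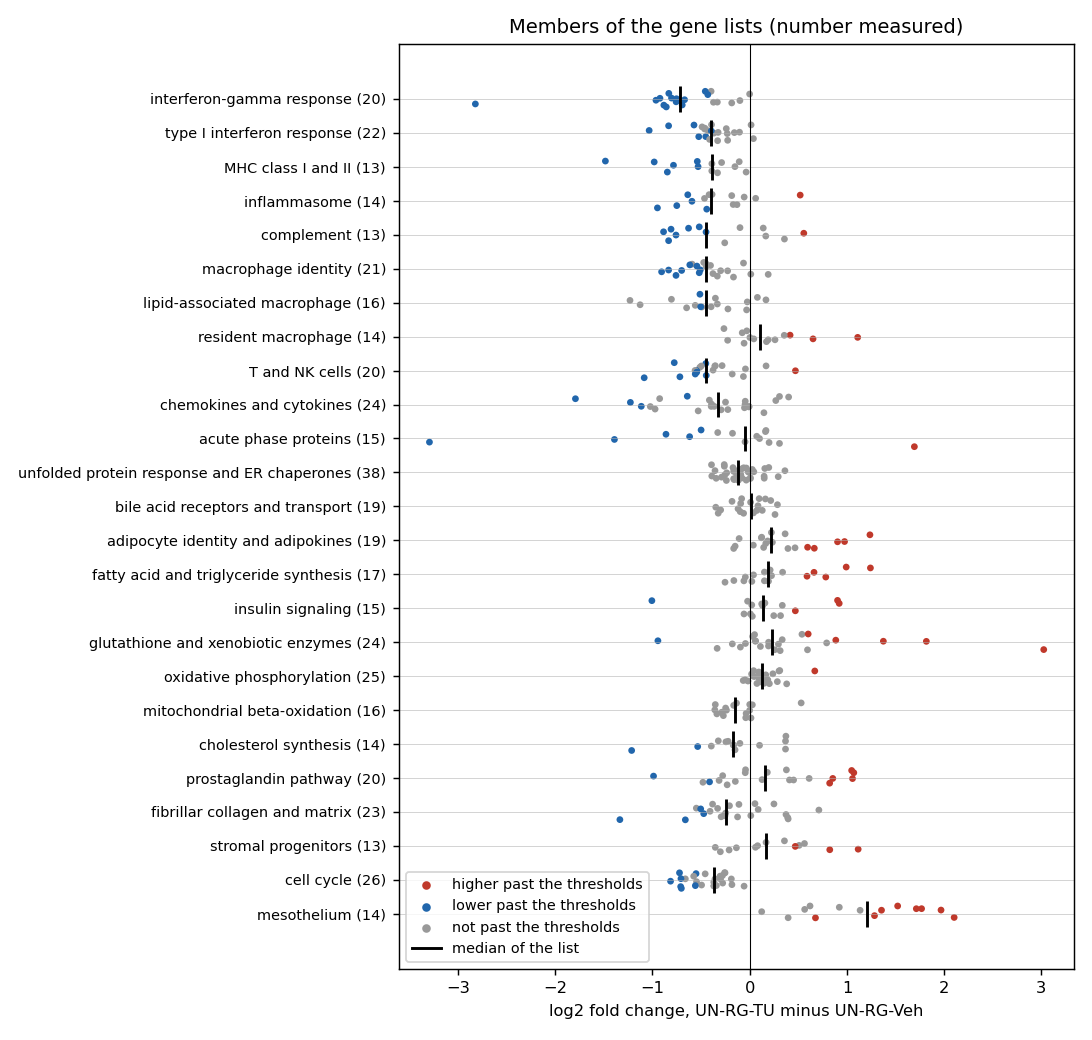
Log2 fold change (horizontal axis) of the members of 25 gene lists, with the number measured in brackets, coloured by whether they rose (red), fell (blue) or did not pass the thresholds (grey), and the median of each list as a bar. The interferon-γ list lies wholly at or below 0 and the mesothelium list wholly above it, while the list of the unfolded protein response holds no coloured point.

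Macrophage genes were lower in part. Of 21 genes of macrophage identity 8 fell and none rose (median −0.45). The list mean was 11.72 to 11.87 with vehicle and 11.08 to 11.63 with TU, without overlap. *C1qc* read 12.29, 12.02, 12.12 and 11.76, then 11.22, 11.34, 11.05 and 11.56. The Fc receptor *Fcgr1* read 9.64, 9.54, 9.93 and 10.37, then 8.96, 8.99, 9.03 and 8.88, and fell by 0.91 (SE 0.25). *Aif1*, a calcium-binding protein of macrophages, fell by 0.54 (SE 0.17).

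The receptors that most define macrophages did not pass the thresholds. *Adgre1*, which encodes F4/80, read 11.83, 11.99, 11.99 and 12.16, then 11.84, 10.94, 11.06 and 11.77 (−0.59, SE 0.33, adjusted p = 0.709). *Csf1r* was at −0.38 (SE 0.19) and *Itgam* at −0.06 (SE 0.38). The number of genes of macrophage identity that fell was 5 without UN-RG-TU 14 and 5 without UN-RG-Veh 12. Genes of lipid-associated macrophages, which gather around dying fat cells, varied widely between treated pups. Of 16 members 2 fell, against 3.18% of all clusters (5 when only the 2 groups were fitted). *Gpnmb* read 13.97, 13.79, 13.32 and 13.70 with vehicle, but 15.06, 12.85, 10.73 and 13.91 with TU, and *Trem2* read 11.04, 10.47, 10.22 and 11.17, then 10.46, 9.48, 7.76 and 10.28. Pup 15 was the lowest in both genes, and pup 13 was above every vehicle pup for *Gpnmb*.

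Resident macrophage genes did not share the fall. None of 14 fell and 3 rose, *Lyve1*, *Timd4* (0.42, SE 0.16) and *Retnla* (0.65, SE 0.23), with a median of 0.11. Of the 14 differences 9 were above 0 and 5 below, and 1 member was lower in every treated pup without passing. *Timd4* binds the phosphatidylserine of dying cells, and *Retnla* is a secreted marker of alternative activation. *Retnla* read 17.09, 16.52, 17.03 and 15.67 with vehicle and 17.18, 17.16, 17.17 and 17.41 with TU. *Folr2* and *Cd209f* were at −0.03 and −0.08. Without UN-RG-Veh 12, where *Retnla* was lowest, 1 member rose and the median was −0.09.

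Among T and natural killer cell genes 8 of 20 fell and 1 rose (median −0.45), but only 9 of the 20 had a mean above the antigenomic median. *Themis*, needed for T cell selection, read 7.93, 7.18, 7.40 and 8.23, then 6.42, 7.12, 6.44 and 6.42, and fell by 1.09 (SE 0.23, adjusted p = 0.0929), with 3 treated values below the antigenomic controls. The defining chains *Cd3d* at 0.17, *Cd3e* at −0.28 and *Cd3g* at −0.36 did not pass and were dim. *Klrk1*, an activating receptor of natural killer cells, fell by 0.56 (SE 0.21), and *Cd2*, an adhesion molecule of T cells, rose by 0.47 (SE 0.22), but not without UN-RG-TU 15 or 16 or without UN-RG-Veh 10, 11 or 12. With dim clusters left out, 4 members fell, and 5 without UN-RG-TU 13.

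Chemokines were lower in 4 of 24 cases and higher in none (median −0.33), against 3.18% and 2.73% of all clusters. *Ccl8*, which attracts monocytes, read 11.56, 12.31, 12.34 and 11.98 with vehicle and 8.98, 11.28, 10.31 and 10.44 with TU, and fell by 1.79 (SE 0.45, adjusted p = 0.190). *Cxcl12*, which retains leukocytes and progenitors, read 14.33, 15.10, 15.01 and 14.88, then 13.21, 13.97, 13.47 and 14.21, and fell by 1.12 (SE 0.28). *Ccl2*, the best known chemokine of obese fat, ran from 10.33 to 13.24 among vehicle pups alone. Its difference of −0.93 (SE 0.58) was within that spread. Without UN-RG-TU 13, 2 chemokines fell, and without the 4 arrays with cilia genes 7 did.

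Of 15 acute phase proteins 5 fell and 1 rose. Beside *Saa3* and *Hpx*, the hemoglobin scavenger *Hp* fell from 18.24, 18.78, 18.66 and 18.92 to 17.43, 18.32, 17.30 and 18.10, by 0.86 (SE 0.25). *Lbp*, which binds lipopolysaccharide, fell by 0.50 (SE 0.16) and the protease inhibitor *Serpina3n* fell by 0.62 (SE 0.15). *Orm3* rose by 1.69 (SE 0.57), with overlap. The liver forms *Saa1* and *Saa2* were near or below the antigenomic median at 0.10 and 0.17. *S100a9*, the partner of *S100a8* in calprotectin, did not fall with it and lay at 5.62 to 6.75 in all 8 arrays (−0.18, SE 0.22), at the level of the controls. The neutrophil genes *Ngp* and *Ltf* were at 3.21 to 4.61, below the controls in all 8 arrays. In the whole list of neutrophils and alarmins, which holds *S100a8*, 4 of 12 members had a mean above the antigenomic median. Of these 12 members 2 fell and 1 rose, against 3.18% and 2.73% of all clusters.

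Genes of the unfolded protein response, the process TUDCA is used to relieve, did not pass the thresholds in either direction. None of 38 measured members rose or fell, against 2.73% and 3.18% of all clusters. With shares so small, 0 among 38 says little by itself. The median was −0.12, and the values ran from −0.39 to 0.36. *Hspa5* read 16.79, 17.13, 17.10 and 16.96 with vehicle and 16.66, 16.89, 16.68 and 16.72 with TU (−0.26, SE 0.15, adjusted p = 0.721), with overlapping groups. Its 95% interval of −0.57 to 0.06 leaves room for a fall of up to 0.57 but not for a doubling or halving. *Calr*, a lectin chaperone, was at −0.24 (SE 0.16) and *Hsp90b1*, a chaperone of secreted proteins, at −0.04 (SE 0.13). Of the sensors, *Ern1* was at 0.04, *Atf6* at −0.02 and *Eif2ak3* at −0.12. Downstream, *Xbp1* was at −0.06, *Atf4* at −0.12 and *Ddit3*, which promotes cell death, at 0.01.

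For 37 of the 38 genes the 95% interval excluded a 2-fold change, and for 8 it lay within 1.3-fold. *Atf3* was the exception at 2-fold, with an interval of −1.18 to 0.39. More members were below 0 (27) than above (11), but single differences of this size were within the spread between pups. *Ero1a*, which oxidizes ER proteins, had an interval of −0.62 to −0.08 that did not reach 0, and at 0.35 below vehicle it missed the fold threshold. The splicing of *Xbp1* and the phosphorylation of eIF2α, by which this response is usually read, are not seen by these arrays. Over all alternatives at most 1 member rose and 2 fell, the 2 being without UN-RG-TU 16 and without the 4 arrays with cilia genes, and 1 rose without UN-RG-TU 14 or without UN-RG-Veh 9.

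Receptors and carriers of bile acids also showed no change past the thresholds. None of 19 rose or fell (median 0.01), and only 7 had a mean above the antigenomic median. With 2.73% of all clusters higher and 3.18% lower, 0 among 19 says little about this set. *Nr1h4*, the nuclear receptor FXR, lay at 4.35 to 5.23 in all arrays and *Gpbar1*, the membrane receptor TGR5, at 5.79 to 6.83. *Slc10a1*, the main bile acid importer of liver, was so dim that only 0.5% of the antigenomic controls lay below its mean. Those well above the controls were *Klb*, the coreceptor of FGF15 and FGF21 (0.26, SE 0.23), *Fgfr1* (0.22, SE 0.24) and the integrin chains *Itgb1* (0.01, SE 0.11) and *Itga5* (−0.32, SE 0.26). Without UN-RG-TU 14, 1 member rose, and without UN-RG-TU 16, 2 fell.

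**Figure D4:**
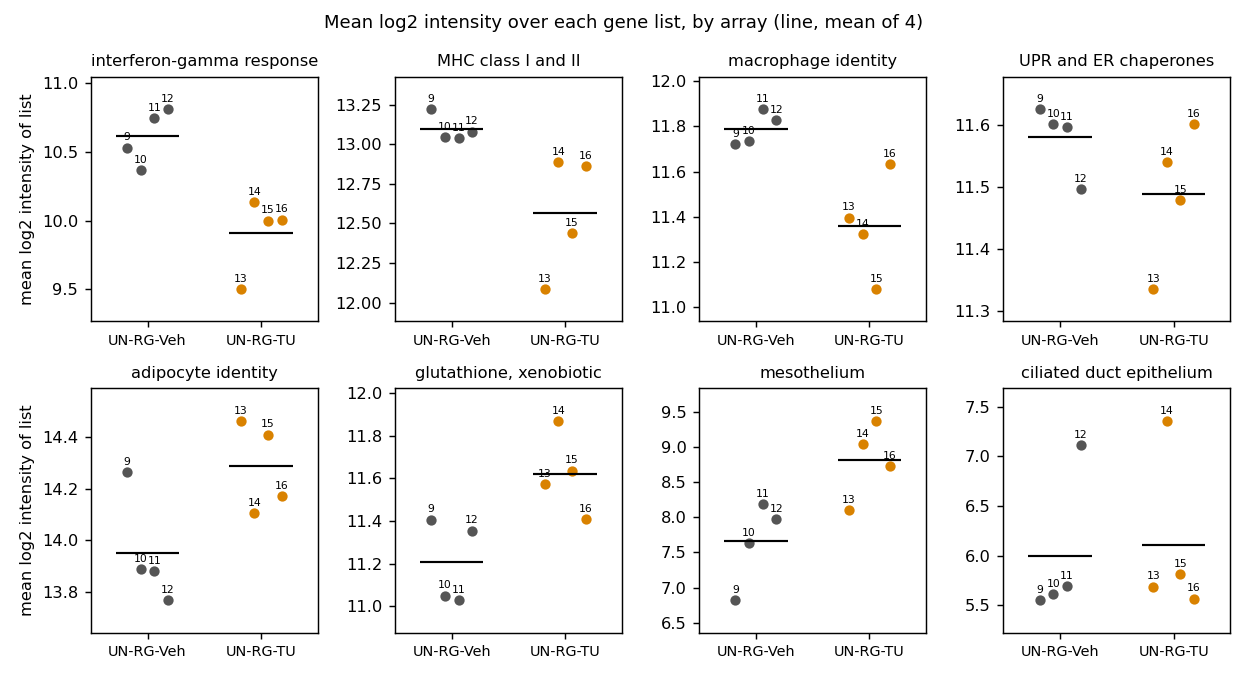
Mean log2 intensity over the members of 8 gene lists (vertical axes, each with its own range) in each of the 4 UN-RG-Veh (grey) and 4 UN-RG-TU arrays (orange), with array numbers and the group mean (line). The interferon-γ, MHC and macrophage means do not overlap between the groups, the ER chaperone means do, and the ciliated list is high in UN-RG-Veh 12 and UN-RG-TU 14 alone.

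On the higher side were genes of the mature fat cell. Of 19 adipocyte genes 5 rose and none fell (median 0.22). *Retn*, which encodes resistin, read 17.82, 17.07, 17.33 and 16.92 with vehicle and 18.16, 17.67, 18.16 and 17.80 with TU, and rose by 0.66 (SE 0.17). *Slc2a4*, the insulin-regulated glucose transporter GLUT4, read 10.79, 9.49, 9.56 and 9.37, then 10.95, 10.33, 10.93 and 10.62, and rose by 0.90 (SE 0.25). In both, vehicle pup 9 lay within the treated range while the other 3 vehicle pups were below it. *Rbp4*, a retinol carrier secreted by fat, rose by 0.98 (SE 0.27), and *Pck1*, an enzyme of glyceroneogenesis, by 1.24 (SE 0.49). *Nrg4*, a fat-derived growth factor, rose by 0.60 (SE 0.17) without overlap. *Adipoq* at 0.12 (SE 0.10) and *Lep* at −0.11 (SE 0.11) did not pass, and the 95% interval of *Lep*, −0.33 to 0.12, lay within 1.3-fold. Without UN-RG-Veh 9, or without UN-RG-TU 14, 8 members rose.

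Among genes of fatty acid and triglyceride synthesis, 5 of 17 rose and none fell (median 0.19). *Elovl6*, which lengthens palmitate, read 10.03, 9.96, 9.65 and 9.27 with vehicle and 11.32, 10.30, 11.56 and 10.69 with TU, and rose by 1.24 (SE 0.29, adjusted p = 0.120). *Acaca*, the carboxylase that makes malonyl-CoA, rose by 0.78 (SE 0.24) and *Fasn*, the synthase, rose by 0.59 (SE 0.23), with the highest values in pups 13 and 15. *Thrsp*, a regulator of lipogenesis, rose by 0.99 (SE 0.30) and *Pnpla3*, a lipase, by 0.66 (SE 0.22). *Acly*, which supplies acetyl-CoA, was at 0.21 (SE 0.19) and did not pass. Of 14 cholesterol synthesis genes none rose and 2 fell, against 2.73% and 3.18% of all clusters. The larger fall was of *Dhcr7*, from 10.78, 11.64, 11.00 and 10.68 to 8.87, 10.12, 9.64 and 10.61 (−1.21, SE 0.30). With 1 array left out, 1 to 3 of these genes fell, 2 rose without UN-RG-Veh 9 and 1 rose without UN-RG-TU 13.

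In insulin signaling 3 of 15 rose and 1 fell. *Irs1*, the docking protein of the insulin receptor, read 7.23, 7.39, 6.74 and 6.70 with vehicle and 7.64, 7.80, 8.59 and 7.73 with TU, and rose by 0.92 (SE 0.21, adjusted p = 0.108). *Gys1*, glycogen synthase, rose by 0.47 (SE 0.16). *Pdk4*, which keeps pyruvate from oxidation, fell by 1.01 (SE 0.43), with a single vehicle pup, 12, far up at 12.75, and did not pass without that pup, UN-RG-Veh 10, or UN-RG-TU 13, 15 or 16. *Insr* at 0.16 and *Irs2* at −0.02 did not pass. Of 25 genes of oxidative phosphorylation 1 rose (*Cyc1*, 0.67, SE 0.22) and none fell, with 22 above 0 and a median of 0.13. That is 4.0% of the list, near the 2.73% of all clusters that rose. None of 16 genes of β-oxidation passed in either direction. Without UN-RG-Veh 9, 4 genes of oxidative phosphorylation rose.

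Detoxifying enzymes rose in 5 of 24 cases and fell in 1 (median 0.23). *Gsta3*, a glutathione transferase, read 12.44, 11.52, 12.18 and 11.69 with vehicle and 14.26, 13.41, 14.39 and 13.04 with TU, and rose by 1.82 (SE 0.34, 3.52-fold, adjusted p = 0.0723). *Gsta4*, which clears the lipid aldehyde 4-hydroxynonenal, rose by 1.37 (SE 0.40). *Cyp2e1*, a cytochrome P450, had the largest rise of the genes named here. It read 12.29, 11.54, 13.85 and 12.64, then 15.75, 16.02, 17.00 and 13.65, and rose by 3.02 (SE 0.64, 8.13-fold, adjusted p = 0.0986), with vehicle pup 11 above treated pup 16. *Hmox1*, which breaks down heme, was the member that fell, by 0.94 (SE 0.25), with all 4 treated pups below the vehicle pups.

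Of 20 prostaglandin genes measured, 5 rose and 2 fell, with a median of 0.15 that turned to −0.13 without UN-RG-TU 14. None fell without UN-RG-TU 15 or without UN-RG-Veh 12. *Ptger3*, an E2 receptor that restrains lipolysis, read 13.11, 13.25, 13.19 and 12.86, then 14.14, 13.41, 14.36 and 13.91, and rose by 0.85 (SE 0.19, adjusted p = 0.104). *Ptgis*, prostacyclin synthase, rose by 0.82 (SE 0.19), *Ptges*, an E2 synthase, by 1.07 (SE 0.34) and *Alox15*, a lipoxygenase, by 1.06 (SE 0.30). *Hpgds*, the D2 synthase of macrophages and mast cells, fell by 0.99 (SE 0.42), and *Lta4h*, which makes leukotriene B4, fell by 0.41 (SE 0.17).

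Stromal progenitor genes rose in 3 of 13 cases, *Pi16* (1.12, SE 0.32), *Bmp4* (0.82, SE 0.26) and *Gsn* (0.47, SE 0.12). Matrix genes fell in 4 of 23 cases, against 3.18% of all clusters. *Mmp3*, a matrix protease, fell most, from 6.84, 8.39, 7.85 and 7.68 to 5.92, 6.32, 6.33 and 6.84 (−1.34, SE 0.26, adjusted p = 0.0780), 3 of the treated values being below the antigenomic controls. The fibrillar collagens *Col1a1* at 0.01 (SE 0.33) and *Col3a1* at −0.38 (SE 0.24) did not pass. Without UN-RG-TU 13 the balance turned, with 4 matrix genes that rose and 1 that fell. The count that fell was 2 without UN-RG-TU 15 or UN-RG-Veh 12, 7 without UN-RG-TU 16 or UN-RG-Veh 9, and 2 rose without UN-RG-Veh 11. Cell cycle genes fell in 7 of 26 cases and rose in none (median −0.37), among them the mitotic kinesin *Kif11* by 0.81 (SE 0.29) and the ubiquitin ligase *Ube2c* by 0.70 (SE 0.24). *Mki67* at −0.66 (SE 0.34) did not pass. This count was 3 without UN-RG-TU 13, 3 without UN-RG-Veh 11, 12 without UN-RG-TU 14 and 13 without the 4 arrays with cilia genes.

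Genes of mesothelium, the sheet of cells that covers the fat pad, had the median farthest from 0 of any list not picked by the study, also under each of the 17 alternatives among the 24 lists run in them. Of 14 measured members 8 rose and none fell, all 14 differences were above 0, and the median was 1.21. The list mean was 6.82, 7.64, 8.19 and 7.98 with vehicle and 8.10, 9.04, 9.37 and 8.73 with TU, so that pup 13 lay just inside the vehicle range. *Upk3b*, a uroplakin, read 7.73, 10.15, 11.43 and 9.22, then 10.54, 11.47, 12.58 and 12.33, and rose by 2.10 (SE 0.61). *Gpm6a*, a membrane glycoprotein, rose by 1.97 (SE 0.47), *Krt7*, a simple keratin, by 1.36 (SE 0.27) and *Lrrn4* by 1.52 (SE 0.38). *Msln*, which encodes mesothelin, rose by 1.28 (SE 0.38), and *Wt1*, a transcription factor of mesothelium, by 0.68 (SE 0.18) while staying below the controls at 4.70 to 6.13. Without UN-RG-Veh 9 still 8 rose (median 0.95), and without the 4 arrays with cilia genes 12 did. Whether more of the covering sheet came with the treated samples was not measured, and its part in the other results was not tested. Germ cell genes, a sign of tissue from the testis, had a mean above the controls in 2 of 13 cases and none passed, but their list means did not overlap, at 5.10 to 5.19 with vehicle and 5.25 to 5.99 with TU, and their part in the results was not tested either.

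By size alone, among genes with no overlap between the groups and with the higher group mean above the median intensity (157 that rose and 196 that fell), the 12 largest in each direction were taken. *Itgad*, *Mstn* and *Tfr2* entered through the vehicle group alone, since their treated means lay below the median intensity of each of the 8 arrays. For *Itgad* and *Mstn* the treated means were also below the antigenomic controls. Among the genes taken, *Gpm6a*, *Prg4* and *Krt7* are mesothelial genes of the list above. *Pkhd1l1*, which encodes a large membrane protein, read 6.47, 7.77, 9.00 and 8.17, then 9.11, 9.31, 10.93 and 10.03, and rose by 1.99 (SE 0.46, adjusted p = 0.120). Its lowest vehicle value was in pup 9, where the mesothelial genes were also lowest. *Plagl1*, an imprinted zinc finger gene, read 8.33, 7.43, 7.63 and 7.44, then 10.18, 8.87, 10.19 and 9.01, and rose by 1.86 (SE 0.39, adjusted p = 0.0986). *Thbd*, which encodes the anticoagulant thrombomodulin, rose by 1.71 (SE 0.39), and *Prg4*, which encodes the lubricant proteoglycan lubricin, also by 1.71 (SE 0.54). *Hspb7*, a small heat shock protein of muscle and fat, rose by 1.56 (SE 0.39), *Apcdd1*, an inhibitor of Wnt signals, by 1.41 (SE 0.31), *Morc4* by 1.48 (SE 0.27) and *Fam180a* by 1.62 (SE 0.35).

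Of the deepest falls, *Itgad*, an integrin subunit of macrophages, read 7.09, 7.16, 8.15 and 8.68 with vehicle and 5.87, 6.37, 5.63 and 6.03 with TU, and fell by 1.80 (SE 0.34, adjusted p = 0.0723). *Otop1*, a proton channel, fell by 1.76 (SE 0.44), *Trdn*, which encodes triadin of the calcium store, by 1.71 (SE 0.37), and *Tfr2*, a transferrin receptor, by 1.58 (SE 0.38). *Mup19* and *Mup9*, major urinary proteins, fell by 2.77 (SE 1.14) and 2.18 (SE 0.92). In *Mup19* the vehicle pups ran from 9.29 to 12.22. The Mup genes are near-identical copies whose probes can cross-read, so these 2 are uncertain as separate genes, and *Mup22* and *Mup2* also had groups that did not overlap at −2.27 and −2.08 without passing.

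In NN pups TU changed fewer clusters at the same thresholds, 301 higher (1.36%) and 429 lower (1.93%), and the comparison shares no array with that in UN-RG pups. Of the 607 clusters that rose in UN-RG pups 71 also rose in NN pups (11.7% of the former and 23.6% of the latter) and 3 fell. Of the 706 that fell, 138 also fell in NN pups (19.5% and 32.2%) and 1 rose. Over all clusters the changes had a correlation of 0.34, as a description across clusters that are not independent. *Ccl8* fell in both, with −1.79 in UN-RG and −2.10 in NN pups, as did *S100a8* (−2.50 and −1.18) and *Chil3* (−1.77 and −1.17), while *Saa3* was at −1.51 in NN pups and did not pass there. Cell cycle genes fell in 20 of 26 cases in NN pups (median −0.75) and in 7 of 26 in UN-RG pups (median −0.37).

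The interferon-γ list was at −0.72 in UN-RG pups and at 0.07 in NN pups, where 1 of 20 fell. Its mean in NN-Veh pups was 10.11 (SD 0.06, n = 4) and in NN-TU pups also 10.11 (SD 0.11), below the 10.61 (SD 0.20) of UN-RG-Veh and above the 9.91 (SD 0.28) of UN-RG-TU. *Casp1* was at 11.51 in NN-Veh and 11.52 in NN-TU, a difference of 0.02 (SE 0.14). *Lyve1* was lower with TU in NN pups by 0.49 and higher in UN-RG pups by 1.11. The difference between the 2 effects, tested as an interaction, passed an adjusted p of 0.05 for no cluster (0 of 22206, 0%, with 701 at an unadjusted p under 0.05), and its smallest adjusted p was 0.261, for *Lyve1*. It was 0.987 for both *Casp1* and *Ptgs2*. A difference between UN-RG and NN pups in the response to TU is therefore not shown for any single gene.

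**Figure D5:**
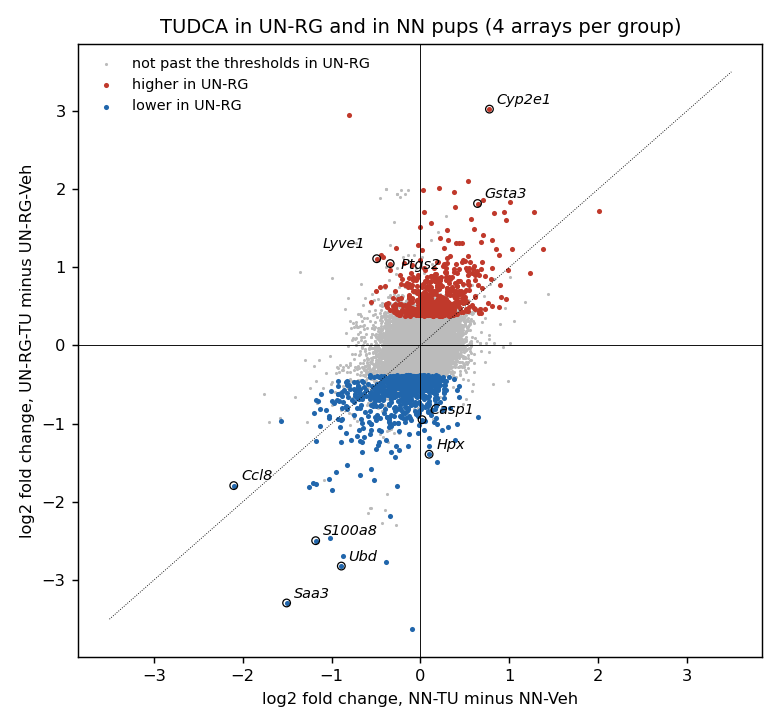
Log2 fold change with TU in NN pups (horizontal axis) against that in UN-RG pups (vertical axis) for 22206 clusters, 4 arrays per group, coloured where the cluster rose (red) or fell (blue) in UN-RG pups; the dotted line marks equal changes. *Ccl8* lies near that line, while *Casp1* and *Hpx* lie near 0 on the horizontal axis and *Lyve1* and *Ptgs2* have opposite signs.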

How the data were processed

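RNA of epididymal fat was read on Clariom S mouse arrays, 1 per pup. The authors used Transcriptome Analysis Console and Expression Console. Each transcript cluster has 1 deposited intensity per array, already normalized and not on a log scale. The normalization method and the software versions are not given in the sources used here. The log2 of the deposited intensity was taken, 314 control probe sets were left out of 22520 rows, and 22206 clusters were tested with no filter on dim ones. Of these, 19572 carry 1 gene symbol by the platform annotation and 2634 none. Where a gene has several clusters, as 55 have, the brightest on average stands for it.

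The fit, by limma 3.58.1 (R 4.3.3) with eBayes, had a mean for each of the 4 groups and 1 shared estimate of the spread. Adjusted p-values are by Benjamini-Hochberg across the clusters tested. Every adjusted p comes from this fit. SD is over the 4 arrays of a group and SE is that of the fitted difference. The steps were tested on simulated data. The design had been written for log2 values. Nothing says that pups of a group came from separate litters.

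Members and the 42 gene lists were chosen with earlier results of these data known. By the rule, genes named are those of the study and the 12 largest changes each way without overlap and with the higher group mean above the median intensity. From each list they are the first entries and at most 4 past the thresholds with the smallest p. Further genes were named outside this rule, such as those at the smallest adjusted p and more members of the unfolded protein response. Alternatives were a filter on dim clusters, median centring, quantile normalization, 1 cluster per gene, a fit of 2 groups, the methods' t-test, a variance trend with robust prior, the 4 arrays with cilia genes left out or given a term, and each array left out in turn. Promoter windows are from RefSeq. Python 3.11.15 with matplotlib 3.10.9 made the figures.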

Additional observations from a re-analysis of the deposited data

Results flagged for a closer look

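In groups of 4 arrays, 1 array far from the other 3 was looked for in 33 named genes and 26 list means, 118 groups in all. It was found in 4 of them, and chance gives about 1 in 20 such groups. The mean of the list of ciliated duct epithelium was 7.12 in UN-RG-Veh 12 against 5.55 to 5.70 in the others, and 7.36 in UN-RG-TU 14 against 5.57 to 5.81. The mean of the inflammasome list was 8.30 in UN-RG-Veh 11, above the 8.14 to 8.16 of the others. The mean of the list of oxidative phosphorylation was 13.25 in UN-RG-Veh 9, above 12.92 to 12.96. No array of the 33 genes searched stood out in this way. The other genes named in the text were not searched, and 1 array can stand apart in them.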

How the results depend on the processing

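The count of clusters past an adjusted p of 0.05, 0 in the fit reported, was 32 with dim clusters left out, 37 with an intensity trend and robust prior, and 69 with a term for the 4 arrays with cilia genes. With 1 array left out in turn it ran from 0 to 46, the 46 being without UN-RG-Veh 9 and 12 without UN-RG-TU 14. Clusters that rose numbered 372 and those that fell 434 by the methods' t-test, and 950 rose without the 4 arrays with cilia genes. With 1 array left out, 439 to 912 rose and 593 to 996 fell. The interaction passed for 0 clusters in every setting run. The methods' t-test left 9 of 20 interferon-γ genes, 1 of 22 type I interferon genes, 3 of 26 cell cycle genes and 3 of 17 lipogenesis genes past the thresholds. Without the 4 arrays with cilia genes, 9 of 13 MHC genes, 4 of 22 type I interferon genes and 5 of 13 complement genes fell. Of 24 detoxifying enzymes 7 then rose and 2 fell, of 20 prostaglandin genes 7 and 1, and of 13 stromal progenitor genes 4 and 1. The median of the resident macrophage list, 0.107, ran from −0.090 (without UN-RG-Veh 12) to 0.188 with 1 array left out, was −0.037 without UN-RG-TU 16, and turned to −0.035 without the 4 arrays with cilia genes. That of the acute phase list, −0.048, ran from −0.242 to 0.074 (without UN-RG-TU 16) with 1 array left out, and was −0.50 with dim clusters left out. The cause was not tested. Of 560 values of 33 named genes, 549 kept direction and call, and the 11 lost calls were all of *Mup19* and *Mup9*. No paired analysis was possible because the groups share no replicate number. With 4 arrays per group, and no depth behind an array, the number of arrays limits the precision.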

Other observations

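Some of the largest differences had groups that overlapped, and they were chosen after their values were seen. *Gpr50*, an orphan receptor of the melatonin receptor family, read 13.36, 12.51, 10.93 and 13.80 with vehicle and 8.21, 11.44, 5.45 and 11.00 with TU, a fall of 3.63 (SE 1.16, adjusted p = 0.346). Treated pups 13 and 15 were far below pups 14 and 16, and *Cdkl4* and *Lipf* had their 2 lowest values in the same pups. *Rnase2a*, a ribonuclease of the eosinophil family, ran from 5.10 to 11.32 among the vehicle pups alone and rose by 2.95 (SE 1.03, adjusted p = 0.405). *Acta2*, smooth muscle actin, rose by 0.55 (SE 0.18) in UN-RG pups and fell by 0.56 in NN pups, but the interaction did not pass (adjusted p = 1.0).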
